A study of Rattus norvegicus with 7 samples.

Results

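A set of 10 genes that mark T cells was followed in the meibomian glands of rats, the lipid-secreting glands of the eyelid, with and without ultraviolet B (UVB) irradiation of the lid. The genes were given by symbol (Cd3d, Cd3e, Cd3g, Cd2, Cd4, Cd5, Cd8a, Lck, Zap70 and Il7r). Rows for 8 of the 10 were found among the 17245 genes present in both deposited tables, and 7 of the 8 held enough counts to be tested among 13709 genes. Cd4 and Il7r were not analysed here, and Cd3d was measured but fell under the low-count filter. Both groups came from wild-type female Sprague-Dawley rats aged 3 months. There were 4 control libraries, labelled as untreated, and 3 libraries from rats whose shaved upper lids received UVB at 300 mJ/cm2 over 5 min per day on 5 days. The labels do not state whether control lids were shaved, how long after the last exposure the glands were taken, or whether each library is a separate animal, so the p-values measure the spread between these libraries. Each library is bulk RNA from a dissected gland, so a fall or rise in the number of cells of a type and a change in RNA per cell cannot be told apart.

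T cells recognise antigen through a receptor whose signal is carried by the CD3 chains, encoded by Cd3d, Cd3e and Cd3g. The kinase LCK phosphorylates these chains, and the kinase ZAP-70 then docks on them and passes the signal on. CD4 and CD8 are coreceptors that bring LCK to the receptor, CD2 is an adhesion receptor, and CD5 dampens receptor signals. Skin and its appendages hold resident T cells even when uninjured. Not all of these genes are restricted to T cells: in the rat, CD8A and CD2 are also carried by natural killer (NK) cells and by some macrophages, and rat macrophages carry CD4 as well.

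The libraries held between 20680237 and 28784941 expected counts (estimated reads per gene). Genes of the lipid-secreting meibocytes were abundant in every library, with a summed level of 44233 to 53430 TPM (a transcript level corrected for length and library size) in the controls and 40540 to 47145 TPM after UVB for 9 of 9 listed markers, which matches the labelled tissue. The T cell genes were scarce. The 8 measured members together reached 6.92 to 9.17 TPM in the controls and 6.77 to 13.28 TPM after UVB. Averaged over the 7 libraries, each member lay between the percentiles 2.89 (Lck) and 16.6 (Cd2) of the tested genes by TPM. No member had more than 55 counts in any library, so each value below carries a counting error beside the spread between libraries. The files name the group of each library but give no replicate number that matches the labels, so the controls are lettered a to d and the UVB libraries a to c, and equal letters do not make a pair.

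Among the T cell genes, Cd8a and Cd2 rose after UVB, while the CD3 chain genes, Cd5, Lck and Zap70 did not pass the test. With edgeR's quasi-likelihood test, 2 of the 7 tested members had a Benjamini-Hochberg adjusted p under 0.05, both higher in the UVB libraries, and none fell. Over all genes tested, 13.0% were called in either direction, 6.30% higher and 6.74% lower. The same 2 members had an unadjusted p under 0.05, beside 29.5% of all genes tested. The median log2 fold change of the tested members was 0.028, beside -0.0058 over all genes tested. The groups did not overlap in CPM (counts scaled to library size, normalised by the TMM method) for 2 of the 8 measured members, the same pair, beside 26.6% of all genes tested.

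**Figure D1:**
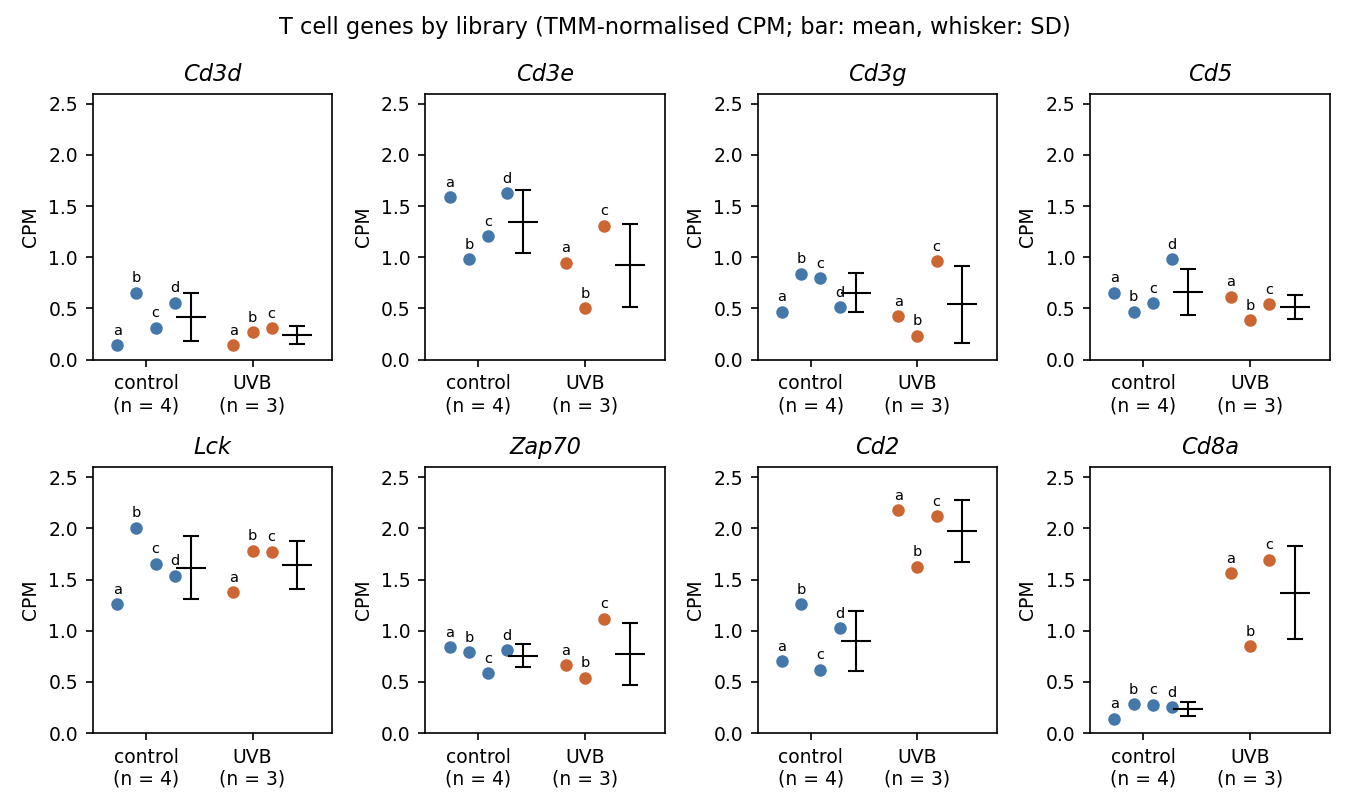
TMM-normalised CPM (vertical axis, linear) of the 8 measured T cell genes in each library, with controls in blue and UVB in orange; letters name the libraries, and the bar and whisker beside each group give its mean and SD. The 3 UVB libraries lie above all 4 controls for Cd2 and Cd8a, and the groups overlap in the other 6 panels.

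The CD3 genes encode the signalling chains of the receptor complex and are the most specific T cell markers in the set. Cd3e (NCBI gene 315609) measured 1.59, 0.980, 1.21 and 1.62 CPM in the controls, a to d, and 0.948, 0.503 and 1.31 CPM in UVB a to c. UVB a and b lay below every control, and UVB c lay inside the control range. Its log2 fold change was -0.55 (SE 0.35, 95% interval -1.34 to 0.24, edgeR adjusted p = 0.329). Without UVB b the value was -0.24, and without UVB c it was -0.91 (edgeR adjusted p = 0.173). Cd3g (NCBI gene 300678) measured 0.467, 0.840, 0.793 and 0.513 CPM in the controls and 0.427, 0.232 and 0.963 CPM after UVB. Here UVB a and b were again the lowest libraries, and UVB c was the highest of all 7. The log2 fold change was -0.27 (SE 0.48, 95% interval -1.34 to 0.80, edgeR adjusted p = 0.751), and it was -1.01 without UVB c and 0.11 without UVB b. Cd3d (NCBI gene 25710) had 3, 14, 9 and 13 counts in the controls and 3, 7 and 8 counts after UVB, so its groups overlapped. With no low-count filter its log2 fold change was -0.74 (edgeR adjusted p = 0.449). Cd3d also entered the fits on TPM and those that left out a UVB library, and it was not called in them.

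Summed over the CD3 genes, the level was 2.19, 2.47, 2.31 and 2.69 CPM across the controls, a narrow range, and 1.52, 1.01 and 2.58 CPM in UVB a to c. In CPM the UVB libraries therefore split, with a and b below the controls and c among them. By TPM, a and b were again below, but c (5.79 TPM) lay above every control (4.14 to 5.29 TPM). The SD was 0.804 CPM after UVB (mean 1.70, n = 3) against 0.216 CPM in the controls (mean 2.42, n = 4). The 95% interval of Cd3e allowed anything from a fall of 1.34 to a rise of 0.24 on the log2 scale, so neither a clear loss nor a constant level was shown.

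Neither of the kinases that act next to the receptor was called. Lck (NCBI gene 313050), the kinase that phosphorylates the CD3 chains, measured 1.26, 2.01, 1.66 and 1.54 CPM in the controls and 1.37, 1.78 and 1.77 CPM after UVB. All 3 UVB values lay inside the control range, and the log2 fold change was 0.028 (SE 0.24, 95% interval -0.50 to 0.56, edgeR adjusted p = 0.952). In the GRCr8 annotation Lck overlaps another gene, LOC120102985, and the handling of strand is not given in the sources used here, so its counts are uncertain. Zap70 (NCBI gene 301348), the kinase that docks on phosphorylated CD3 chains, measured 0.840, 0.793, 0.586 and 0.812 CPM in the controls and 0.664, 0.542 and 1.12 CPM after UVB. Its UVB values spread on both sides of the controls, with UVB b lowest and UVB c highest, and the log2 fold change was 0.047 (SE 0.33, 95% interval -0.70 to 0.79, edgeR adjusted p = 0.943). Without UVB c that value was -0.32, and without UVB b it was 0.26, neither of them called.

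Cd5 (NCBI gene 54236), which encodes a receptor that tempers T cell activation, measured 0.653, 0.467, 0.552 and 0.983 CPM in the controls and 0.616, 0.387 and 0.539 CPM after UVB. UVB b was the lowest library and control d the highest, and the remaining values mixed. The log2 fold change was -0.37 (SE 0.37, 95% interval -1.19 to 0.44, edgeR adjusted p = 0.532). Without control d it was -0.12 and without UVB b -0.20, neither of them called. Over the 7 libraries, Cd5 and Cd3e had the closest relation among the members other than Cd2 and Cd8a (Pearson r = 0.794 of log2 CPM, described without a test, from libraries that hold 10 to 38 counts of each).

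Cd2 (NCBI gene 497761), an adhesion receptor of T and NK cells, measured 0.700, 1.26, 0.621 and 1.03 CPM in the controls, a to d, and 2.18, 1.63 and 2.12 CPM after UVB, a to c. Every UVB library exceeded every control, and the group means were 0.902 ± 0.296 CPM (SD, n = 4) and 1.98 ± 0.304 CPM (SD, n = 3). Cd2 rose by 1.14 on the log2 scale (SE 0.29, 95% interval 0.48 to 1.79, edgeR adjusted p = 0.0333). The direction was the same in all fits, but the call was lost in 6 of the 7 fits that left out a library. With a control left out, the adjusted p was 0.0594 (control a), 0.0855 (control c) or 0.0650 (control d), and with a UVB library left out it was 0.0853 (UVB a), 0.0520 (UVB b) or 0.0875 (UVB c). It passed without control b (0.0306) and in the 8 other alternatives that could test it (0.0123 to 0.0426).

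Cd8a (NCBI gene 24930), which encodes the alpha chain of the CD8 coreceptor, showed the largest change of the members. It had 3, 6, 8 and 6 counts in controls a to d, or 0.140, 0.280, 0.276 and 0.256 CPM, and 33, 22 and 44 counts in UVB a to c, or 1.56, 0.852 and 1.70 CPM. The lowest UVB library stood well above the highest control. Counting error alone gives the pooled level of the controls a 95% exact Poisson interval of 0.153 to 0.362 CPM and that of the UVB libraries 1.10 to 1.65 CPM. The means were 0.238 ± 0.0662 CPM (SD, n = 4) and 1.37 ± 0.454 CPM (SD, n = 3), and the rise was 2.48 on the log2 scale (SE 0.38, 95% interval 1.64 to 3.32, edgeR adjusted p = 0.00596). The gene passed in the 15 alternatives that could test it, with adjusted p-values from 4.81e-05 to 0.0206, and in each of the 7 fits without a library (log2 fold change 2.29 to 2.74). On the log2(TPM + 1) scale, which understates the change of low genes, the difference was 1.07. That fit required a mean of at least 1 TPM of other genes but kept all measured members. Cd8a, with a mean of 0.939 TPM, entered it only in this way. Cd8a reached the low-count filter of about 10 counts in at least 3 libraries through the UVB libraries alone, and without the filter the change was 2.48 (edgeR adjusted p = 0.00429).

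**Figure D2:**
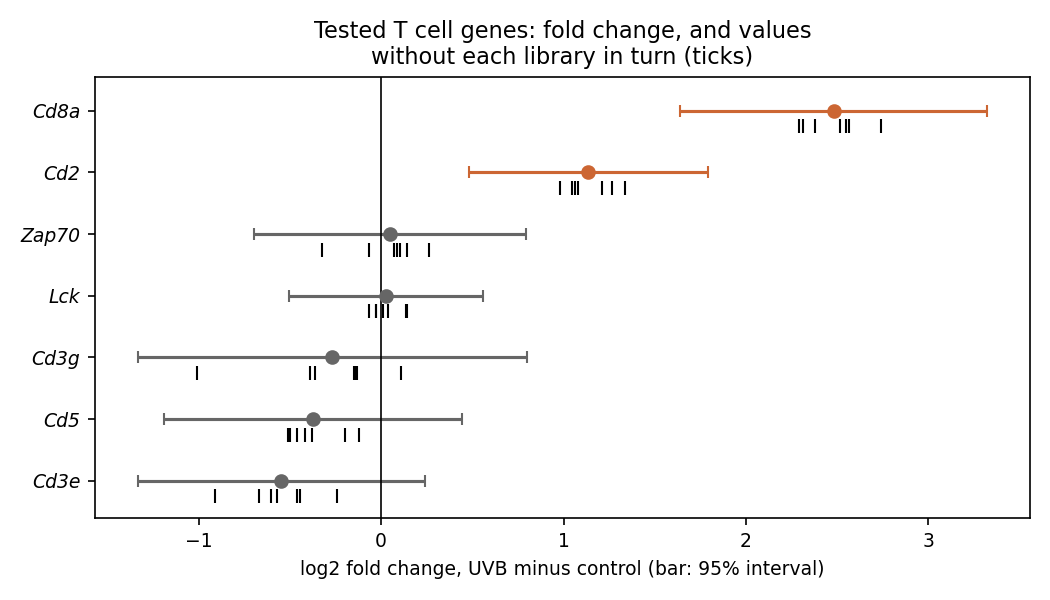
Log2 fold change (UVB minus control, horizontal axis) of the 7 tested T cell genes with 95% intervals from the edgeR fit, orange where the adjusted p is under 0.05; black ticks below each point are the values with each of the 7 libraries left out. The intervals of Cd8a (1.64 to 3.32) and Cd2 (0.48 to 1.79) lie above 0, and the other 5 include 0.

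The windows just upstream of the annotated starts of the 2 genes that rose are shown with that of Cd3e, which was not called, to set the sequences beside the different responses. Each window holds the 250 bases before the start, taken from RefSeq on GRCr8, a build other than the rn7 named in the submitters' processing notes. Windows were found for all 8 measured members, Lck having 2. Capitals mark matches, on either strand, to 6 short motifs of factor families with roles in T cells or at core promoters.

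Cd8a (chr4:104923866-104924115, plus strand): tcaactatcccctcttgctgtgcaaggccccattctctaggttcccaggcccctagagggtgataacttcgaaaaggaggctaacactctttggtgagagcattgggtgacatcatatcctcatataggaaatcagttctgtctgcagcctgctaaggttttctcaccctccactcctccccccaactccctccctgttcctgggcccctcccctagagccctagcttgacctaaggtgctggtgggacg

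Cd2 (chr2:191412660-191412909, minus strand): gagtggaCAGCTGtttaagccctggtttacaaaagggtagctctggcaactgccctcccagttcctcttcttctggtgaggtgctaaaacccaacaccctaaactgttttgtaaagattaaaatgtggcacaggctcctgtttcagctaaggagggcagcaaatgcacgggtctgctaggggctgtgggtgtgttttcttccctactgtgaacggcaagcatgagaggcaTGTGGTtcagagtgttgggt

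Cd3e (chr8:54211771-54212020, minus strand): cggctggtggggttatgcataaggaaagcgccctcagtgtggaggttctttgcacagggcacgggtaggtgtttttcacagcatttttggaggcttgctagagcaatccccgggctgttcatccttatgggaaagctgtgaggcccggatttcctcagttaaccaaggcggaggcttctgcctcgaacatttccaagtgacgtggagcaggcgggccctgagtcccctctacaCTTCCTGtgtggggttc

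The motifs were TGTGGT, bound by RUNX factors, the E-box CAGCTG, a further E-box form CACCTG, the ETS factor motif CNGGAAG, the GATA factor motif AGATAA, and the TATA box TATAAA, none of which overlapped another in these 3 windows. Cd2 held 1 TGTGGT and 1 CAGCTG, which occur in 14.5% and 12.0% of all 33469 windows of this length, and Cd3e held 1 CNGGAAG, present in 25.9%. Cd8a held no match. The 2 genes that rose therefore shared none of these matches in this window, and nothing further follows from the letters about the factors.

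The changes of Cd8a and Cd2 were unlike those of the CD3 genes within the same libraries. By TPM, the ratio of Cd8a to the sum of Cd3d, Cd3e and Cd3g was 0.0435, 0.0686, 0.0681 and 0.0716 in the controls and 0.675, 0.571 and 0.380 in the UVB libraries, in letter order. The groups stood far apart, with means of 0.0629 ± 0.0131 (SD, n = 4) and 0.542 ± 0.150 (SD, n = 3), which are given as a description with no test. Cd8a alone already separated them (0.18 to 0.36 TPM in the controls and 1.08 to 2.20 TPM after UVB), so the ratio is not separate evidence. UVB c, the library with the most CD3 transcripts, had the lowest ratio of the 3 although its Cd8a level was the highest. The ratio of Cd2 to the same sum was added after the plan was made. It was 0.273, 0.390, 0.195 and 0.360 in the controls and 1.19, 1.38 and 0.601 after UVB. The groups did not overlap, as they already did not for Cd2 alone. Over the 7 libraries Cd8a and Cd2 had the highest Pearson correlation of any pair of members, 0.909 of log2 CPM. Each had a negative correlation with Cd3e (-0.446 for Cd8a and -0.456 for Cd2). Those with the other CD3 genes were nearer 0: -0.262 and -0.0793 with Cd3d, and -0.0838 and -0.136 with Cd3g, in the same order. These values share the group difference and the library depths and carry no p.

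**Figure D3:**
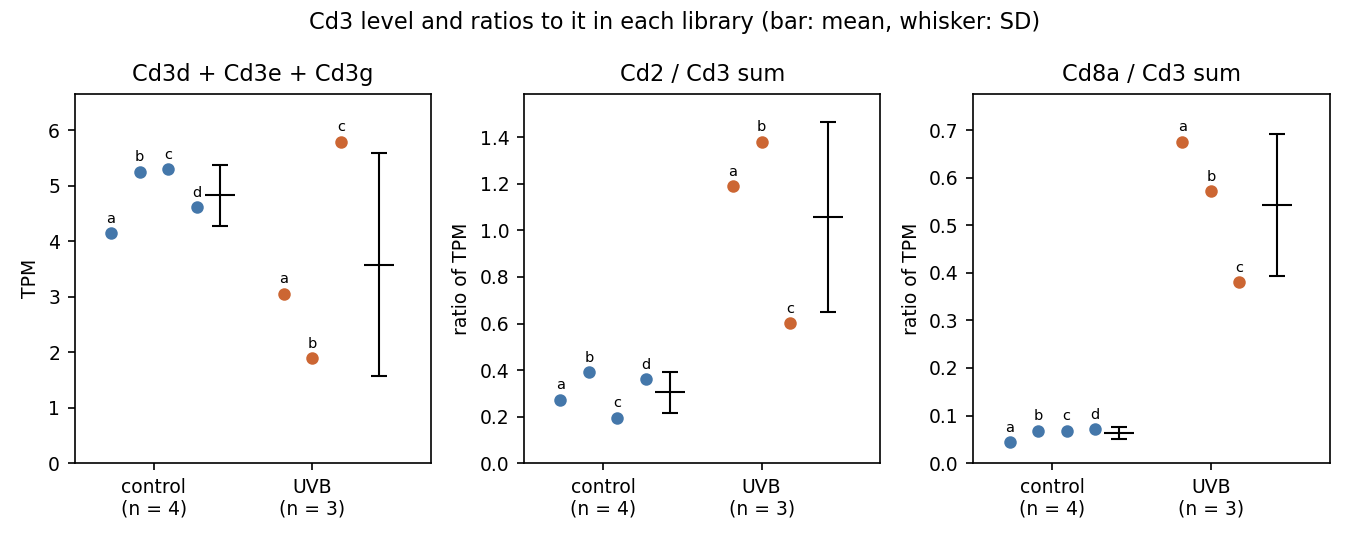
Summed TPM of Cd3d, Cd3e and Cd3g (left), and the TPM of Cd2 (middle) and Cd8a (right) divided by that sum, in each library; the vertical axes are linear from 0, and the bar and whisker beside each group are its mean and SD. Cd8a to CD3 runs from 0.0435 to 0.0716 in the controls and from 0.380 to 0.675 after UVB, while the CD3 sum itself overlaps between groups.

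The order of the members by length-corrected level changed with the 2 genes that rose. In the controls Cd3g led with 2.41 ± 0.729 TPM (SD, n = 4), followed by Cd3e with 1.87 ± 0.361 TPM and Cd2 with 1.47 ± 0.477 TPM, whose ranges overlapped from one to the next. A gap separated Cd2 (lowest library 1.03 TPM) from Cd5 (highest 0.87 TPM). Below it lay Cd5 (0.598 ± 0.196 TPM), Zap70 (0.565 ± 0.0733 TPM), Cd3d (0.545 ± 0.305 TPM), Lck (0.400 ± 0.0753 TPM) and Cd8a (0.308 ± 0.0862 TPM), neighbours whose ranges overlapped. After UVB the highest mean was that of Cd2, 3.24 ± 0.551 TPM (SD, n = 3), then Cd3g with 1.93 ± 1.37 TPM, and Cd8a had moved from last to the third place with 1.78 ± 0.610 TPM. Cd3e (1.33 ± 0.590 TPM) came next, and the ranges of Cd3g, Cd8a and Cd3e overlapped. Cd3d was then last, at 0.317 ± 0.114 TPM.

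Other genes of T cells were counted from 5 further lists. Beside the counts that follow, 6.30% of all genes tested were called higher and 6.74% lower, and a count of 1 or 2 in a list of this size is near that background. Of the T cell receptor signalling genes, 17 of 24 were tested and 2 fell: Rasgrp1, which activates RAS below the receptor, by 0.58 on the log2 scale (SE 0.13, edgeR adjusted p = 0.0224), and Nfatc2, a calcium-driven transcription factor, by 0.51 (SE 0.11, edgeR adjusted p = 0.0178). Rasgrp1 missed the threshold when control b, c, d or UVB b was left out (adjusted p up to 0.0736), and Nfatc2 without control c, UVB a or UVB b (up to 0.0592). Both are also used by cells other than T cells. Their mean levels in the controls were 6.85 and 9.46 TPM, and which cells carried these transcripts was not tested. Cd247 encodes the zeta chain of the receptor complex and was singled out after its values were seen. It measured 0.840, 1.31, 0.828 and 1.20 CPM in the controls and 0.190, 0.735 and 0.732 CPM after UVB. Every UVB library was below every control, but the change, -0.87 on the log2 scale, did not pass (SE 0.42, edgeR adjusted p = 0.200). Over all genes tested, 13.8% had every UVB library below every control. Rasgrp1, Nfatc2, Fyn and Themis of the same list also had every UVB library below every control, Themis being too scarce to test. Only Lcp2 of that list, likewise singled out after its values were seen, had every UVB library above every control. Over all genes tested, 12.8% did so. Lcp2 had 45 to 93 counts in the controls and 91 to 120 after UVB. It was not called either (log2 fold change 0.51, edgeR adjusted p = 0.128). Of the 17 genes tested in this list, 7 had a log2 fold change above 0.

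Among coreceptors and checkpoint receptors, 11 of 20 genes were tested and edgeR called 0, with 3 at an unadjusted p under 0.05, while DESeq2 and limma-voom each called 1. The most abundant were Il2rg, the common chain of several cytokine receptors (log2 fold change 0.66, edgeR adjusted p = 0.0601), and Cd7 (-0.41, edgeR adjusted p = 0.353). Cd8b encodes the partner with which CD8A forms the coreceptor of cytotoxic T cells, and it was looked up because Cd8a had risen. It had 0, 3, 4 and 1 counts in the controls and 2, 3 and 12 counts in UVB a to c. Its groups overlapped and it lay under the low-count filter. The mean was 0.0802 CPM in the controls and 0.224 CPM after UVB. These rest on 8 and 17 counts in all, too few to show whether Cd8b rose with Cd8a.

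Of the transcription factor list, 13 of 15 were tested and 2 fell, among them Lef1 (log2 fold change -1.13, SE 0.20, edgeR adjusted p = 0.00933), whose call held in all 7 fits without a library. Lef1 also acts in epithelium and its appendages. Of the homing and residence genes, 11 of 15 were tested and 2 rose, among them the chemokine receptor gene Ccr7 (log2 fold change 0.88, SE 0.25, edgeR adjusted p = 0.0464). Ccr7 lost its call in 6 of 7 such fits, those without control b, c or d or any UVB library, at adjusted p-values up to 0.134. CCR7 is carried by migrating dendritic cells as well as T cells. Of the chemokines and cytokines that draw or sustain T cells, 12 of 17 were tested. Ccl22, a ligand of the receptor CCR4, averaged 3.59 ± 1.07 CPM over the 4 controls and 1.44 ± 0.178 CPM over the 3 UVB libraries (means with SD). It fell by 1.32 on the log2 scale (SE 0.27, edgeR adjusted p = 0.0163), and it missed the threshold without UVB c (0.0519). None of the others in that list was called by edgeR.

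**Figure D4:**
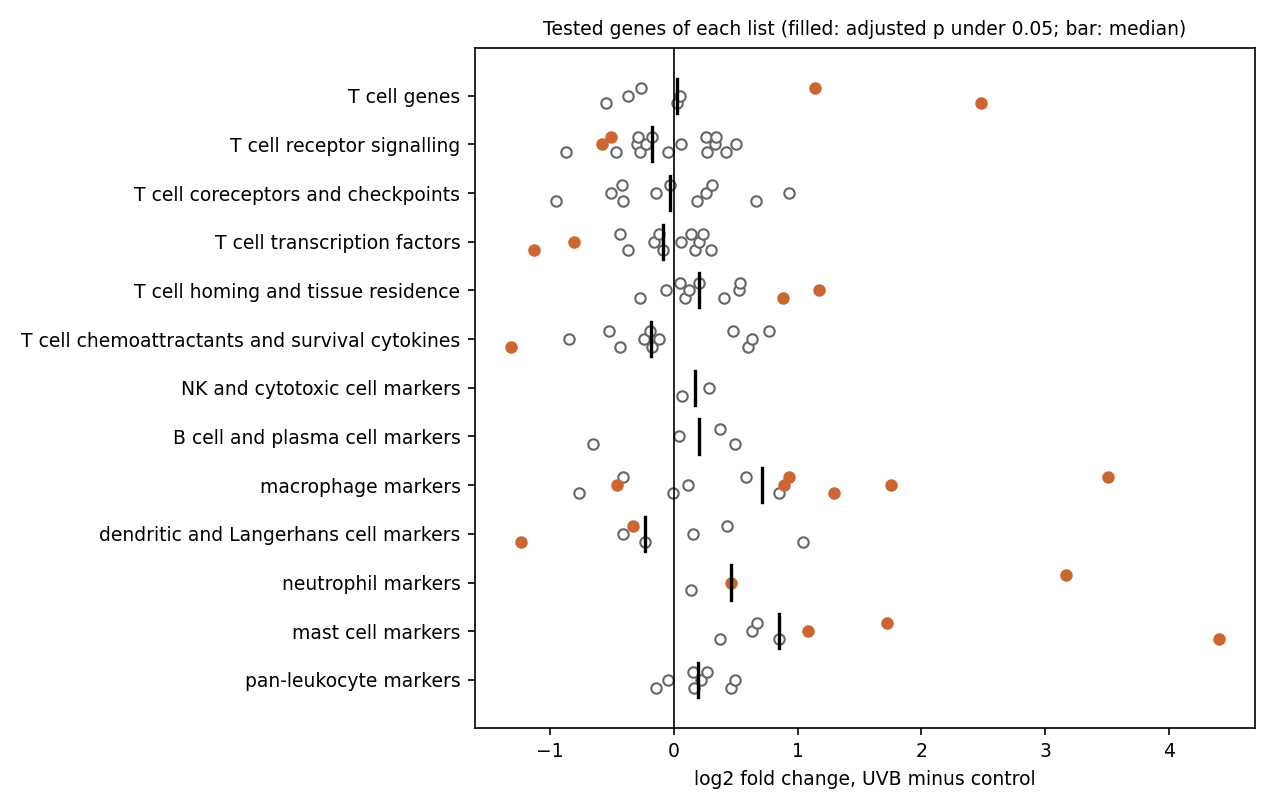
Log2 fold change (UVB minus control) of each tested gene, 1 dot a gene, in the T cell genes, 5 further T cell lists and 7 lists of immune cell markers; filled orange dots have an edgeR adjusted p under 0.05 and black bars are medians. Cd8a is the rightmost dot of the 6 T cell lists, while the macrophage, neutrophil and mast cell lists hold dots farther right.

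Because CD8A and CD2 are carried by other leukocytes, the marker lists of those cells stand beside the rise. Of the NK and cytotoxic cell markers, 9 of 13 were in the tables and 2 were tested; edgeR, DESeq2 and limma-voom each called 0, and 0 had an unadjusted p under 0.05. Their summed level was 3.81 to 7.78 TPM in the controls and 3.88 to 8.58 TPM after UVB. Prf1 and Gzma, both genes of cytotoxic granules, had few counts. Prf1, which encodes perforin, had 5 to 10 counts in the controls and 2 to 4 after UVB, and Gzma had at most 2 counts in a library. Klrk1, an activating receptor of NK and CD8 T cells, differed by 0.063 on the log2 scale (SE 0.43, edgeR adjusted p = 0.941). The defining NK genes Ncr1 and Klrb1, the granule gene Gzmb, and Ifng were not analysed here.

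All 12 macrophage markers were tested, and 5 rose, 1 fell and 6 were not called (6.30% of all genes were called higher and 6.74% lower). Their summed level overlapped between the groups (220 to 550 TPM in the controls and 251 to 406 TPM after UVB), and none was at 0. Cd163, a scavenger receptor of tissue macrophages, measured 2.61, 2.33, 3.83 and 1.50 CPM in the controls and 35.1, 14.8 and 38.8 CPM after UVB (log2 fold change 3.50, edgeR adjusted p = 0.00402). Every UVB library was above every control for Cd163. C1qb (log2 fold change 1.29, edgeR adjusted p = 0.00833) and Cd14 (0.89, edgeR adjusted p = 0.00453) also rose, while Mertk, the gene that fell, changed by -0.46 (edgeR adjusted p = 0.0213) and missed the threshold without control c, UVB a or UVB b (up to 0.0723). Among the general macrophage markers that were not called, Csf1r, the receptor for a macrophage growth factor, had a log2 fold change of -0.0093, Adgre1 of 0.11, Cd68 of -0.41 and the lysozyme gene Lyz2 of -0.77 (edgeR adjusted p from 0.186 to 0.985). With control a, c or d or UVB a or c left out, 3 macrophage markers were called higher in place of 5, and Cd163, C1qb and Cd14 passed in each of the 7 such fits. The part of macrophages in the rise of Cd8a and Cd2 was not tested.

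Some mast cell and neutrophil markers were called higher as well, beside 6.30% of all genes tested. Of 7 tested mast cell markers 3 rose and 4 were not called, with a summed level of 21.9 to 30.6 TPM in the controls and 40.2 to 49.99 TPM after UVB, and Mcpt1 was at 0 throughout. Of 3 tested neutrophil markers 2 rose, among them the growth factor receptor gene Csf3r (log2 fold change 3.16, edgeR adjusted p = 0.00608). With any library except UVB a left out, 1 neutrophil marker was called in place of 2. The summed level of that list was 1579 to 1776 TPM in the controls and 1841 to 2115 TPM after UVB, most of it S100a8 and S100a9, which keratinocytes also make, and Elane was at 0. Of 7 tested dendritic and Langerhans cell markers 2 fell. They were Epcam (log2 fold change -0.33, edgeR adjusted p = 0.0167), which is also an epithelial gene and reached a mean of 371 TPM in the controls, and Cd207, the Langerhans cell gene for langerin (log2 fold change -1.24, edgeR adjusted p = 0.0167). Epcam missed the threshold without control c or d or UVB b or c (up to 0.0548), and Cd207 missed the threshold without UVB a (0.0533) or UVB b (0.0523). The number called lower in that list was 1 without control c or d or UVB a or c, and 0 without UVB b, where 1 marker was called higher. Its summed levels overlapped, at 544 to 779 TPM and 467 to 591 TPM. B cell and plasma cell markers were sparse, with 4 of 11 tested and 0 called by edgeR, DESeq2 or limma-voom (0 at an unadjusted p under 0.05), and Ms4a1 had at most 1 count. Of 8 tested genes shared by most leukocytes, the same 3 tools called 0, with 0 at an unadjusted p under 0.05. Among them Ptprc, which encodes CD45, differed by -0.045 on the log2 scale (SE 0.31, edgeR adjusted p = 0.942). Markers of the tissue's other cells differed too. Of 6 tested fibroblast markers 4 rose (Pdgfra, Pdgfrb, Dcn and Lum, by 0.65 to 1.95 on the log2 scale), while Col1a1 (-0.48) and Col3a1 (0.019) were not called. Dcn missed the threshold in 5 of the 7 fits without a library, all but those without control a or UVB b (edgeR adjusted p up to 0.075). Of 5 tested endothelial markers 2 rose (Cdh5 and Vwf), and Vwf alone was called without control a, b or c or UVB a or c. Of 6 tested keratinocyte markers 1 rose (Krt14), a call lost without control c or UVB c. Of 9 tested meibocyte markers 2 fell (Awat2 by 0.66 and Plin2 by 0.45 on the log2 scale), and without control a 1 was called higher. Of 5 tested skeletal muscle markers edgeR, DESeq2 and limma-voom called 0, with 0 at an unadjusted p under 0.05. How far any of these cells contribute to the T cell gene values was not tested.

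Genes with the most similar pattern over the 7 libraries were listed by Pearson correlation of log2 CPM among 11966 genes with a mean count of at least 50. For the summed CD3 level the first 6 were LOC100174910 (r = 0.990), Klk7 (0.986), Atp7a (0.985), Atp6v0a4 (0.977), Tuft1 (0.977) and Kcnj9 (0.975), none of which belongs to a T cell list here. None of the 6 was called between the groups (edgeR adjusted p from 0.192 to 0.442). For Cd8a, a target added after its values were seen, the first 5 were Ppic (r = 0.994), Npr1 (0.990), Lum (0.990), Osmr (0.988) and Slc7a7 (0.987), and all 5 were called higher after UVB (edgeR adjusted p from 0.00238 to 0.0139). LUM is a matrix proteoglycan of fibroblasts. With 7 libraries in 2 groups, many genes reach such values, so these are descriptions of pattern.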

How the data were processed

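RNA sequencing libraries of 4 control and 3 UVB meibomian glands were compared. Per the file headers, the authors deposited expected counts per gene (called raw, 12.5% of values not whole) and TPM values. The submitters' processing notes name FastQC, Trimmomatic, DRAGEN, Picard and rn7, without roles; the counting program is not given in the sources used here. Gene names with unquoted commas shift cells, so each row was parsed backwards from its last cell, and 5 incomplete rows per table were left out. Columns were assigned to groups by their first letter.

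Counts were rounded and fitted in edgeR 4.0.16 (R 4.3.3; TMM, filterByExpr by group, robust quasi-likelihood, all 7 libraries), two-sided, with Benjamini-Hochberg adjustment over 13709 genes. SE came from F (the size of the log2 fold change over the root of F), and 95% intervals use the fit's degrees of freedom. CPM uses TMM effective library sizes. Correlations use log2(CPM + 0.05). DESeq2 1.42.0 and limma 3.58.1 served as alternatives. Fits were tested on simulated data.

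The members and lists were chosen with earlier results of these data known. Named genes were the members, up to 4 called genes per list (otherwise the 2 most abundant), and the 6 genes most like the CD3 sum, beside those stated as chosen after their values were seen; some genes the rule names are not reported here. Of 208 listed symbols, 2 were found under another name (RefSeq, GRCr8) and 17 were not analysed here. No pair of libraries agreed within sampling noise (chi-square per degree of freedom at least 10.6).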

Additional observations from a re-analysis of the deposited data

Results flagged for a closer look

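The spread of the 4 controls was examined for 10 values. In 2 of them 1 library stood apart, and both are low values of Cd8a in control a, so they are not independent; chance flags about 1 in 20 such groups. Cd8a measured 0.140 CPM (3 counts) in control a against 0.256 to 0.280 CPM in controls b to d, a gap of 0.831 of the range. The ratio of Cd8a to the CD3 sum by TPM was 0.0435 in control a and 0.0681 to 0.0716 in the rest, where the gap took 0.874 of the range. With control a left out, Cd8a had a log2 fold change of 2.32, and the gene was called (edgeR adjusted p = 0.00982).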

How the results depend on the processing

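No paired analysis was possible because the column names carry no replicate number that matches the labels. A filter at a mean count of 50 left no T cell gene to test. Cd8a kept its call in every alternative that tested it, and Cd2 in all of these except 6 of the 7 fits without a library. The number of T cell genes called was 1 to 2 over the 7 fits without a library, and the members whose groups do not overlap numbered 2 to 4 of 8 (4 without UVB c), where 29.9% to 37.3% of all genes tested did not overlap (35.8% without UVB c), an alternative chosen after seeing the data. Genes called over the whole table ran from 851 to 1898 in those fits. Signs near 0 were not stable in them, and none of the reversed values was called: Cd3g ran from -1.01 to 0.11 on the log2 scale, Lck from -0.067 to 0.14 and Zap70 from -0.32 to 0.26; the cause was not tested. No member had more than 55 counts in a library; the standard errors hold both counting error and the spread between libraries, and the share of each was not tested.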
